A study of Homo sapiens with 4 samples.

Results

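The 9 genes described here encode the enzymes that carry squalene epoxide through lanosterol to cholesterol: LSS, CYP51A1, TM7SF2, MSMO1, NSDHL, HSD17B7, EBP, SC5D and DHCR7. They were picked by symbol from the table that pairs RefSeq transcripts with genes, and they are 9 of the 15219 genes with counts. RNA-seq was carried out on 2 libraries of PANC-1, a human pancreatic ductal adenocarcinoma cell line, and on 2 libraries of PZT-2, a stable line derived from it in which the 3 isoforms of histone variant H2A.Z were knocked down. PZT-2 carries lentiviral pLL3.7 vectors with U6-driven short hairpins against H2A.Z.1 (gene H2AFZ) and against both isoforms of H2A.Z.2 (gene H2AFV), and it was selected with puromycin. PANC-1 is the parental line without vector or selection, and PZT-2 is a clonal line, so the knockdown, the vector, the selection and the choice of a clone cannot be told apart in this comparison. Libraries of the scramble control PSCR were not analysed here. Both lines were grown in DMEM with serum. The study calls the libraries of a line biological replicates. The labels do not say whether they came from separate cultures, and the p values measure only the spread between these libraries.

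Cholesterol is made from acetyl-CoA through mevalonate, squalene and lanosterol, and the last part of the route takes place in the membrane of the endoplasmic reticulum. There, lanosterol loses 3 methyl groups, and its double bonds are moved or reduced until cholesterol is left. Transcription of these genes is raised by SREBP-2, the product of SREBF2, which is released from the endoplasmic reticulum by SCAP when membrane sterol is low and is held back there by INSIG proteins when sterol is plentiful. The promoters that SREBP-2 acts on often also bind NF-Y, at CCAAT boxes, and Sp1, at GC boxes.

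The sequence before the start of 6 of the 9 genes is shown because all 9 genes, summed over their transcripts, moved the same way between the lines and these starts show how alike or unlike their CCAAT boxes are. DHCR7 and EBP had the largest and the smallest change among the 9 genes, LSS and MSMO1 followed DHCR7, NSDHL holds several boxes in a short stretch and CYP51A1 holds none. Each line gives the 160 bases that end just before the annotated start, 5′ to 3′ on the strand of the gene, from RefSeq on GRCh38.p14, and capitals mark CCAAT or its reverse complement ATTGG.
DHCR7: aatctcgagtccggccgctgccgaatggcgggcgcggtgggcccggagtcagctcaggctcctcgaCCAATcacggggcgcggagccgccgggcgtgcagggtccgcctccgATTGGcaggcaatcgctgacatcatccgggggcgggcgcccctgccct
LSS: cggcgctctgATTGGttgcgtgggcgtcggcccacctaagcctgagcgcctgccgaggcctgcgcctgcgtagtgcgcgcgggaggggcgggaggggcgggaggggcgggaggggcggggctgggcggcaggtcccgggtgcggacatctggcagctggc
MSMO1: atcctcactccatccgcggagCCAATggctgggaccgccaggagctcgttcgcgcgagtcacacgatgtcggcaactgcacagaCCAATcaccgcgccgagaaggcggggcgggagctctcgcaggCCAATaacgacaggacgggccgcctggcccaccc
NSDHL: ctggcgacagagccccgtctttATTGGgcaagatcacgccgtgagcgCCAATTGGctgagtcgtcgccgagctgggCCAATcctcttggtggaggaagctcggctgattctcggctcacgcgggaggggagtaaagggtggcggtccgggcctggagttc
EBP: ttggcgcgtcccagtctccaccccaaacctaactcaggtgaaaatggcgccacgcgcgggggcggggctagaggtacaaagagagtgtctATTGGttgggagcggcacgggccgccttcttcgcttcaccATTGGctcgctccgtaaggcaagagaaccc
CYP51A1: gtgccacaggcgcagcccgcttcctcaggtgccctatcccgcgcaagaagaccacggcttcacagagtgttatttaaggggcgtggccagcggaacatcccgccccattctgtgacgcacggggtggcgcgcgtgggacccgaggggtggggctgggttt
In GRCh38.p14 these windows lie at chr11:71448394-71448553 on the minus strand, chr21:46228775-46228934 on the minus strand, chr4:165327509-165327668 on the plus strand, chrX:152830903-152831062 on the plus strand, chrX:48521648-48521807 on the plus strand and chr7:92134478-92134637 on the minus strand. RefSeq lists 2 starts for DHCR7 and 2 for SC5D, and the DHCR7 start shown is the one with CCAAT boxes before it. The other DHCR7 start has none.

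Over the full windows of 250 bases before to 50 bases after a start, CCAAT on either strand was found at 8 of the 9 genes and at 39.7% of the 27305 genes with a window. These 27305 genes include genes without counts in these libraries, so their shares are not those of expressed genes alone. GC boxes (GGGCGG, either strand) were found at 8 of the 9 genes, all but NSDHL, and at 48.3% of all genes. In LSS, GC boxes begin 75, 66, 57, 48 and 38 bases before the start, a row of repeats that can be read in the sequence above. E-boxes (CANNTG, which reads the same on both strands) were found at all 9 genes and at 73.1% of all genes. In DHCR7 the E-box was found only at the start not shown, and GC boxes only at the start shown. In NSDHL an E-box covers part of a CCAAT box. The sequence TCACNCCAC, a form of the sterol regulatory element, was found at none of the 9 genes and at 1.39% of all genes. Of 8 genes of the mevalonate part with a window, CCAAT was found at 6, GC boxes at 7, E-boxes at 5 and TCACNCCAC at none. A match describes letters in a window and says nothing on binding, which was not measured.

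All 9 genes, with counts summed over their transcripts, were lower in PZT-2. In the quasi-likelihood test of edgeR, adjusted after Benjamini and Hochberg over the 15099 genes tested, 9 of 9 passed an adjusted p of 0.05 in the lower direction, beside 13.7% of all genes tested. The median log2 fold change of PZT-2 against PANC-1 was -0.93 over the 9 genes and 0.0009 over all genes tested. For each of the 9 genes the higher PZT-2 library was below the lower PANC-1 library, which held for 33.0% of all genes tested. Summed over the 9 genes, normalized counts (counts set to the mean library size after TMM scaling) were 11243 and 11076 in the PANC-1 libraries and 4546 and 4779 in the PZT-2 libraries. As a share of all counts that is 779 ± 2.06 CPM for PANC-1 and 332 ± 12.2 CPM for PZT-2, each with SD over 2 libraries. In bulk RNA, fewer cells that express a gene and less RNA per cell cannot be told apart.

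LSS, lanosterol synthase, closes the chain of squalene epoxide into the 4 rings of lanosterol, and it is the entry to this part of the route. Its normalized counts were 1844 and 1761 in PANC-1 and 718 and 713 in PZT-2. The replicates of each line lay close together and far from the other line. The mean went from 1803 ± 58.7 to 715 ± 3.37 (SD, n = 2 in each line), a log2 fold change of -1.33 with a standard error (SE) of 0.0628 (edgeR adjusted p = 0.000134). CYP51A1, the cytochrome P450 that removes the methyl group at C14 of lanosterol, had 1593 and 1649 normalized counts in PANC-1 and 673 and 744 in PZT-2. Its groups did not overlap either, and PZT-2 held 43.7% of the PANC-1 mean (log2 fold change -1.19, SE 0.0728, edgeR adjusted p = 0.000258).

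TM7SF2 encodes the C14 sterol reductase that reduces the double bond left by CYP51A1. Its normalized counts were 452 and 330 in PANC-1 and 213 and 228 in PZT-2. The groups did not overlap, but the PANC-1 libraries differed from each other by more than the PZT-2 mean of 221 differed from the lower of them. The log2 fold change was -0.82 (SE 0.164, edgeR adjusted p = 0.0127), and it ran from -1.04 to -0.58 with each library left out in turn. Without PZT-2 replicate 1 or 2 TM7SF2 no longer passed (edgeR adjusted p = 0.066 and 0.0598). LBR, the lamin B receptor of the inner nuclear membrane, carries the same reductase activity. It had 835 and 969 normalized counts in PANC-1 and 676 and 696 in PZT-2, a smaller change (log2 fold change -0.40, SE 0.0898, edgeR adjusted p = 0.0196) that was also no longer past the threshold without PZT-2 replicate 1 or 2 (adjusted p = 0.0956 and 0.0886). The difference between the changes of LBR and TM7SF2 was not tested.

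The methyl groups at C4 are removed by 3 enzymes that act in turn and are held together by the scaffold protein ERG28. MSMO1, the methyl oxidase that begins each round, had 699.96 and 807 normalized counts in PANC-1 and 299 and 310 in PZT-2, which left 40.4% of the PANC-1 mean (log2 fold change -1.31, SE 0.0991, edgeR adjusted p = 0.000503). NSDHL, the dehydrogenase that releases the carbon as CO2, had 1331 and 1326 in PANC-1 and 688 and 757 in PZT-2, or 54.4% of the PANC-1 mean (log2 fold change -0.88, SE 0.0719, edgeR adjusted p = 0.000629). For both enzymes the gap between the lines was several times the gap between replicates. HSD17B7, the ketone reductase that ends a round, had 192 and 241 in PANC-1 and 119 and 127 in PZT-2 (log2 fold change -0.83, SE 0.153, edgeR adjusted p = 0.00945). Its groups did not overlap, but without PZT-2 replicate 1 or 2 it did not pass (edgeR adjusted p = 0.0578 and 0.0538). HSD17B7P2, a pseudogene whose reads may be hard to separate from those of HSD17B7, had 15.8 and 11.7 in PANC-1 and 4.03 and 17.8 in PZT-2, small numbers beside those of HSD17B7. ERG28 fell as well, from 656 and 621 to 336 and 303 (638 ± 24.9 and 319 ± 23.8 as mean ± SD, n = 2, edgeR adjusted p = 0.000876).

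The last 3 enzymes rearrange the double bonds of the ring. EBP, the isomerase that moves the double bond of the B ring and that also binds emopamil, had 1023 and 1003 normalized counts in PANC-1 and 591 and 606 in PZT-2. It had the smallest change among the 9 genes and narrow replicates (log2 fold change -0.76, SE 0.0669, edgeR adjusted p = 0.000803). SC5D, the desaturase that makes 7-dehydrocholesterol on this route, had 522 and 649.8 in PANC-1 and 258 and 359 in PZT-2. The replicates of each line were far apart for their level, and the groups still did not overlap (log2 fold change -0.93, SE 0.175, edgeR adjusted p = 0.0101). With the most abundant transcript of each gene alone, SC5D, which has 1 counted transcript, kept its log2 fold change of -0.93 and did not pass (adjusted p = 0.0513). DHCR7 reduces 7-dehydrocholesterol to cholesterol and thereby takes away the precursor of vitamin D. It had 3584 and 3308 in PANC-1 and 987 and 934 in PZT-2, so that PZT-2 held 27.9% of the PANC-1 mean (log2 fold change -1.84, SE 0.0696, edgeR adjusted p = 6.15e-05). This was the largest change of the 9 genes.

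Between genes, levels were compared as TPM, which takes transcript length into account, using the deposited values summed over the transcripts of a gene. In PANC-1 the order was DHCR7 (169 ± 8.94), EBP (121 ± 0.865), NSDHL (114 ± 0.178), CYP51A1 (67.5 ± 1.07), LSS (54.7 ± 1.72), MSMO1 (44.7 ± 4.80), TM7SF2 (33.2 ± 7.32), HSD17B7 (19.4 ± 3.20) and SC5D (10.6 ± 1.66), each as mean TPM ± SD with n = 2. No pair of neighbours in that order overlapped in library values, and the highest mean was 15.9 times the lowest. In PZT-2 the order was EBP (70.8 ± 1.22), NSDHL (61.5 ± 3.91), DHCR7 (46.8 ± 1.93), CYP51A1 (29.0 ± 2.41), LSS (21.8 ± 0.0436), TM7SF2 (18.6 ± 0.903), MSMO1 (18.0 ± 0.246), HSD17B7 (10.9 ± 0.454) and SC5D (5.55 ± 1.27), again in TPM with n = 2. Only the TM7SF2 and MSMO1 values overlapped there. DHCR7 thus was highest of the 9 genes in PANC-1 but below EBP and NSDHL in PZT-2, while SC5D and HSD17B7 were lowest in both lines. For the paired C14 reductases, LBR stood at 27.9 and 32.5 TPM in PANC-1, a range that overlaps that of TM7SF2 (33.2 ± 7.32, SD, n = 2), and at 22.5 and 23.1 TPM in PZT-2, above TM7SF2 (17.9 and 19.2). EBPL, a relative of EBP that does not have its isomerase activity, stood at 78.6 and 89.3 TPM in PANC-1 and at 80.0 and 91.3 in PZT-2. EBP was above EBPL in both PANC-1 libraries and below it in both PZT-2 libraries.

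**Figure D1:**
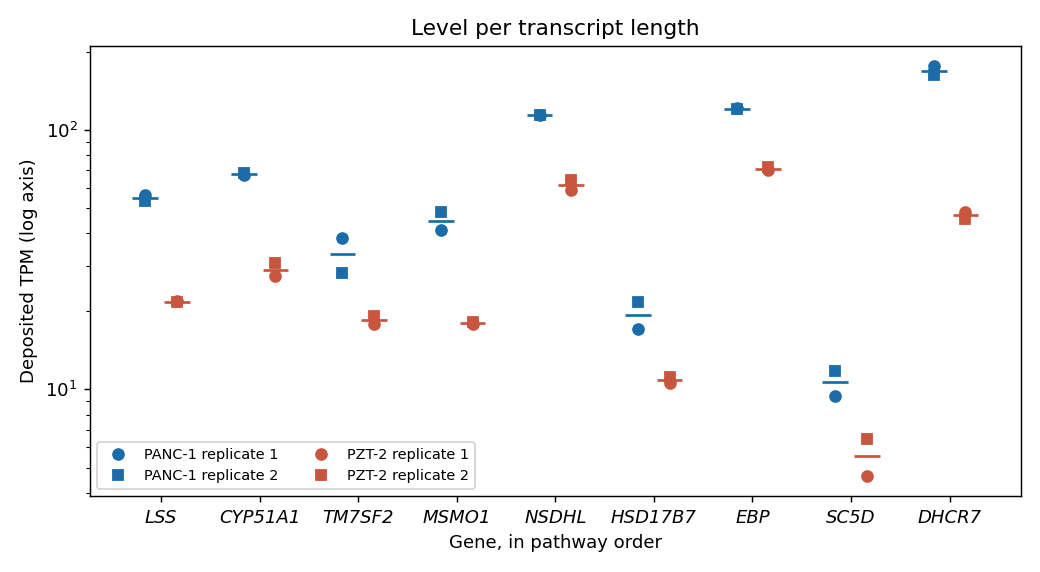
Deposited TPM (log axis) of the 9 genes, with a point for each library and a line at the mean of each cell line. DHCR7 is highest in PANC-1 at 169 TPM and is below EBP and NSDHL in PZT-2 at 46.8 TPM, and SC5D is lowest in both.

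The table of symbols lists 21 RefSeq transcripts for the 9 genes, and 17 of them have counts. EBP (NM_006579), HSD17B7 (NM_016371) and SC5D (NM_006918) are each counted through 1 transcript, and the other 6 genes through 2 to 4. In DHCR7, NM_001360 took 96.9% and 96.0% of the counts of the gene in PANC-1 and 92.6% and 100% in PZT-2. In MSMO1, NM_006745 took at least 91.1% in each library. CYP51A1 was divided more evenly, with 59.8% and 77.7% of its counts on NM_000786 in the PANC-1 libraries and 88.4% and 67.1% in the PZT-2 libraries. These shares overlapped between the lines, as the counts of the whole gene did not.

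LSS was spread over 4 transcripts. NM_002340 held 1238 and 1323 normalized counts in PANC-1 and 541 and 603 in PZT-2. Replicates varied most in NM_001145436, with 425 and 142 in PANC-1 and 0 and 54.2 in PZT-2, and in NM_001145437, with 147 and 271 in PANC-1 and 142 and 21.7 in PZT-2. The replicates of at least 1 line differed widely in both of these transcripts, and NM_001001438 stood between 31.5 and 34.5 in all 4 libraries. TM7SF2 shows the same kind of split. Its transcript NR_102367 had 84.3 and 13.6 in PANC-1 and 0 and 14.8 in PZT-2, while NM_003273 had 368 and 318 in PANC-1 and 213 in each PZT-2 library.

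Tested transcript by transcript in edgeR, 1 of the 17 passed, DHCR7 NM_001360 (log2 fold change -1.85, adjusted p = 0.0348), beside 0.0792% of all transcripts called lower. LSS NM_002340, EBP NM_006579 and NSDHL NM_015922 followed with an edgeR adjusted p of 0.0601 each, and MSMO1 NM_006745 with 0.0662. The Wald test of DESeq2 called 11 of the 17 lower, beside 7.27% of all transcripts, with at least 1 transcript called for each of the 9 genes. The 6 that it did not call were DHCR7 NM_001163817, LSS NM_001001438, NM_001145436 and NM_001145437, MSMO1 NM_001017369 and TM7SF2 NR_102367.

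Upstream of lanosterol, 10 of 11 genes counted between acetyl-CoA and squalene epoxide were called lower and none higher. Over all genes tested, 13.7% were called lower and 14.7% higher. The median log2 fold change of the 11 genes was -0.89. The 4 with the largest changes were ACAT2, which joins acetyl-CoA units (1403 ± 13.7 to 331 ± 24.0 normalized counts, SD, n = 2, log2 fold change -2.08), MVK, mevalonate kinase (572 ± 1.14 to 222 ± 25.4, -1.36), SQLE, the squalene epoxidase that makes the substrate of LSS (1432 ± 152 to 570 ± 7.89, -1.33), and FDFT1, squalene synthase (1285 ± 19.1 to 562 ± 19.0, -1.19). The 1 gene not called was IDI2, an isomerase relative, at 36.0 and 31.6 in PANC-1 and 31.2 and 40.5 in PZT-2. The changes upstream ran from -2.08 to 0.09 and those of the 9 genes from -1.84 to -0.76, so the 2 ranges overlap.

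**Figure D2:**
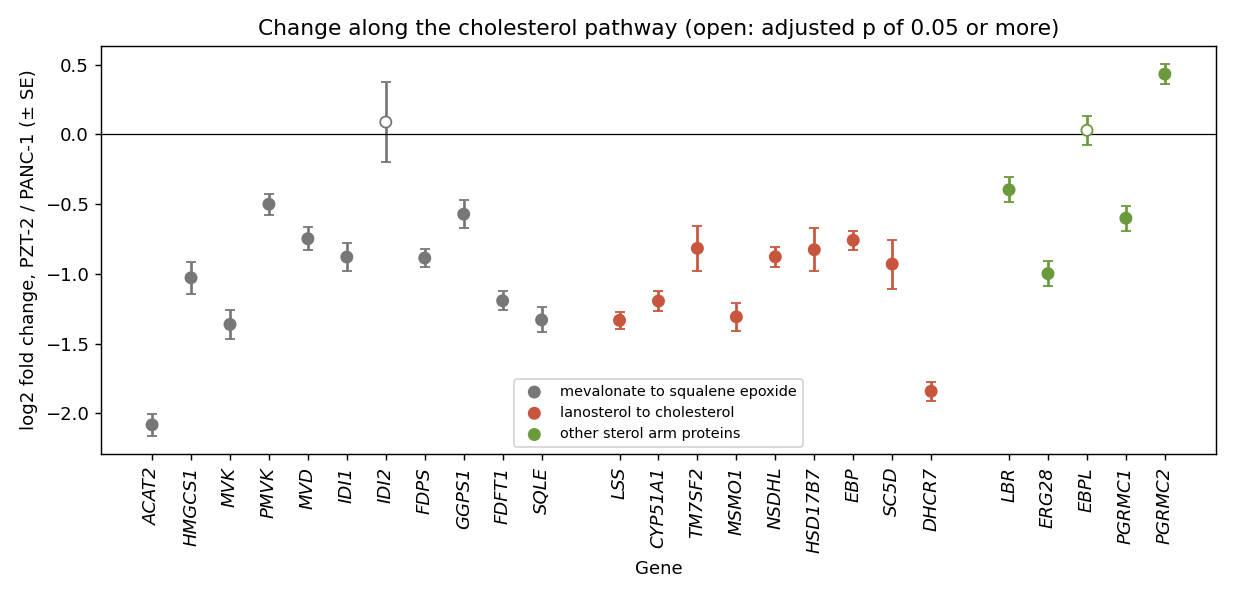
Log2 fold change of PZT-2 against PANC-1 with SE for the mevalonate genes (grey), the 9 genes from lanosterol on (red) and other proteins of the sterol arm (green), with filled points for an edgeR adjusted p under 0.05. The red points lie between -1.84 and -0.76, and PGRMC2, at 0.43, is the only filled point above 0. FAXDC2 is not drawn, as it had at most 8.90 normalized counts in a library.

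Among 6 other proteins of the sterol arm, 3 were called lower and 1 higher, beside 13.7% and 14.7% of all genes tested. Besides ERG28 and LBR, the heme-binding partner of P450 enzymes PGRMC1 went from 1173 ± 109 to 775 ± 48.1 normalized counts (SD, n = 2, log2 fold change -0.60, edgeR adjusted p = 0.00445). Its relative PGRMC2 went the other way, from 650.5 ± 1.62 to 878 ± 27.7 (log2 fold change 0.43, edgeR adjusted p = 0.00562), and it did not pass without PZT-2 replicate 2 (adjusted p = 0.0512). EBPL had 521 and 587 in PANC-1 and 528 and 605 in PZT-2 and was not called (log2 fold change 0.03, SE 0.103). FAXDC2, a relative of MSMO1, was near the lower limit of detection.

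CYP51A1, MSMO1 and SC5D need electrons from POR or from cytochrome b5 and its reductases. Of 7 such genes, 2 were called lower and 2 higher, beside 13.7% and 14.7% of all genes tested, and 3 neither, with a median log2 fold change of -0.01. POR, the P450 reductase, went from 1574 ± 73.0 to 1244 ± 52.7 normalized counts (SD, n = 2, log2 fold change -0.34), and CYB5A, microsomal cytochrome b5, from 459 ± 41.1 to 628 ± 2.67 (log2 fold change 0.45). CYB5R2 (-0.30) and CYB5R1 (0.35) had like-sized changes in opposite directions. None of these 4 passed without PZT-2 replicate 1 or without PZT-2 replicate 2, nor did CYB5R1 with DESeq2 (adjusted p = 0.173) or the replicate block (0.0684), or CYB5R2 with DESeq2 (0.102). With the most abundant transcript alone, CYB5A (0.0657), CYB5R1 (0.117) and CYB5R2 (0.502) did not pass. CYB5R3, a b5 reductase, had 2126 and 1921 in PANC-1 and 1868 and 1963 in PZT-2, which overlap.

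Of 15 genes of SREBP control and sterol uptake, 14 were tested. Of these, 8 were called lower and 1 higher, beside 13.7% and 14.7% of all genes tested. INSIG1, which holds SCAP and SREBP in the endoplasmic reticulum and is itself a target of SREBP, had 1533 and 1573 normalized counts in PANC-1 and 252 and 274 in PZT-2 (log2 fold change -2.56, SE 0.0767, edgeR adjusted p = 5.04e-05). SREBF2 had 2825 and 2277 in PANC-1 and 908 and 840 in PZT-2 (log2 fold change -1.54, SE 0.112, edgeR adjusted p = 0.000451). SREBF1, its relative that mainly serves fatty acid genes, had 3153 and 2288 in PANC-1 and 731 and 675 in PZT-2 (log2 fold change -1.95). All of these had groups far apart, with the wider spread in PANC-1 for both SREBF genes. NPC2, which hands sterol on inside the lysosome, went from 1058 ± 54.2 to 652 ± 29.4 (SD, n = 2, log2 fold change -0.70). SCAP, which escorts SREBP to the Golgi, was the 1 gene called higher, at 1206 and 1153 in PANC-1 and 1708 and 1715 in PZT-2 (log2 fold change 0.54, SE 0.0602, edgeR adjusted p = 0.00171).

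Of 12 genes of sterol efflux, storage and oxysterols, 8 were tested, and 1 was called lower and 1 higher, shares near the 13.7% and 14.7% of all genes tested. APOE, an apolipoprotein, went from 2568 ± 198 to 1830 ± 10.4 normalized counts (SD, n = 2, log2 fold change -0.49, edgeR adjusted p = 0.00398). CYP27A1, which makes 27-hydroxycholesterol, had 60.8 and 47.9 in PANC-1 and 85.6 and 97.9 in PZT-2 (log2 fold change 0.76, SE 0.207, edgeR adjusted p = 0.0359). It was not called with DESeq2, with the most abundant transcript alone, with the replicate block, or without PANC-1 replicate 2 or either PZT-2 replicate. Over the 5 lists together 24 of 46 genes tested were called lower and 5 higher, beside 13.7% and 14.7% of all genes tested. The calls per list thus ranged from 10 of 11 lower among the mevalonate genes to 2 of 7 among the electron donors and 1 of 8 in the last list.

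The targets of the hairpins were lower in PZT-2. H2AFZ had 6390 and 6034 normalized counts in PANC-1 and 2212 and 2258 in PZT-2 (edgeR adjusted p = 6.19e-05). H2AFV had 3343 and 3452 in PANC-1 and 2590 and 2718 in PZT-2 (edgeR adjusted p = 0.00569), and it did not pass without PZT-2 replicate 1 (0.0599) or with its most abundant transcript alone (0.0687). DHCR7 thus held a smaller share of its PANC-1 mean (27.9%) than H2AFZ did (36.0%), while H2AFV held 78.1% (log2 fold change -0.36). The values of H2AFV are summed over its transcripts and do not separate its isoforms. Library totals were between 12861468 and 15717541 counts. Over single transcripts, the variance between replicates was 13.3 times that of counting alone in PANC-1 and 11.2 times in PZT-2. Keratins KRT8, KRT18 and KRT19 had 12384 to 41935 normalized counts in each library, while EPCAM had 82.1 to 105. The 6 epithelial markers summed to 7224 to 7248 TPM in PANC-1 and to 3745 to 3817 in PZT-2, nearly all of it KRT8, KRT18 and KRT19. Of the 6, 4 were called lower, beside 13.7% of all genes tested. These were the same keratins and CDH1, which went from 116 and 148 normalized counts to 0 and 18.8. EPCAM and KRT7 were not called (edgeR adjusted p = 0.499 and 0.286). Of 5 mesenchymal markers, 3 had counts, with sums of 6352 to 6408 TPM in PANC-1 and 4477 to 4589 TPM in PZT-2, nearly all of it VIM. Of these 3, 2 were called lower, VIM (log2 fold change -0.48) and COL1A1 (-1.75), beside 13.7% of all genes tested. PDGFRB went the other way and was not called (0.55, edgeR adjusted p = 0.393), with at most 15.1 normalized counts in a library. The part of these shifts in the results was not tested. Acinar and islet markers and CDH5, PTPRC, CD3E and HBB had no counted transcript. CD68, the only 1 of the 4 genes listed as blood markers with counts, had 1682 and 1578 normalized counts in PANC-1 and 1708 and 1623 in PZT-2. Endothelial PECAM1 had 4.03 to 12.4 over the libraries.

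The 9 genes lie on 6 chromosomes of GRCh38.p14: HSD17B7 at chr1:162790702-162812823, MSMO1 at chr4:165327669-165343164, CYP51A1 at chr7:92112153-92134803, TM7SF2 at chr11:65111872-65116230, DHCR7 at chr11:71427287-71449043, SC5D at chr11:121292771-121313410, LSS at chr21:46188446-46228774, EBP at chrX:48521808-48528716 and NSDHL at chrX:152831063-152869729. CYP51A1, DHCR7 and LSS are on the minus strand and the other 6 on the plus strand. The median log2 fold change of the genes tested on these chromosomes was between -0.09 and 0.04, except on chromosome X, where it was -0.29 over 471 genes and 36.3% were called lower. NSDHL (-0.88, SE 0.0719) and EBP (-0.76, SE 0.0669) were below the median of their chromosome, and the part of the chromosome in their values was not tested. Within 10 kb, 8 of the 9 genes have a tested neighbour, on both sides only for TM7SF2 and DHCR7, 10 neighbours in all. Of these, 3 were called lower, beside 13.7% of all genes tested, and none higher, with a median log2 fold change of -0.42. VPS51, 10 bases from TM7SF2, had a log2 fold change of -0.44 (edgeR adjusted p = 0.00521), ZNHIT2, 173 bases from TM7SF2 on its other side, -0.40 (0.0170), and CETN2, 306 bases from NSDHL, -0.55 (0.00239). ZNHIT2 did not pass without PZT-2 replicate 1 or 2 (adjusted p = 0.0891 and 0.0972) or with DESeq2 (0.0851). MCM3AP-AS1, 457 bases from LSS, had 43.9 and 39.8 normalized counts in PANC-1 and 46.3 and 39.5 in PZT-2. NADSYN1, 4160 bases from DHCR7, had 895 and 848 in PANC-1 and 795 and 827 in PZT-2 (log2 fold change -0.10, SE 0.0696, adjusted p = 0.325), where DHCR7 was at -1.84. PORCN, 994 bases from EBP, had 111 and 108 in PANC-1 and 122 and 145 in PZT-2 (log2 fold change 0.28, SE 0.153, adjusted p = 0.222). Also not called were AKAP9 beside CYP51A1 (log2 fold change -0.63, edgeR adjusted p = 0.0697) and KLHL2 beside MSMO1 (0.31, 0.277). DDR2 beside HSD17B7 (-1.65) and ACTE1P beside DHCR7 (-0.57) were not called either, with at most 18.0 normalized counts in a library.

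Likeness to the 9 genes was measured as the root mean square difference, over the 4 libraries, between the centred log2 CPM of a gene and the mean of the 9 genes. Among the 9, CYP51A1 was closest to the mean of the others (0.0596) and DHCR7 farthest (0.43). Among genes outside the 9 and the lists with a mean of at least 100 normalized counts, the 5 most alike were MMAB, TAF9B, CABLES1, ATP2B1 and ARMCX6. MMAB, an adenosyltransferase of cobalamin metabolism that lies beside MVK in the genome, had 639 and 655 normalized counts in PANC-1 and 278 and 307 in PZT-2 (log2 fold change -1.15, SE 0.0883). The other 4 had log2 fold changes between -1.14 and -1.06. With 4 libraries in 2 lines such likeness says little more than a similar fold change and narrow replicates.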

How the data were processed

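Stranded mRNA libraries were sequenced paired-end (76 bases per read). The authors used Trim Galore 0.4.1 for trimming, kallisto 0.43.0 with a RefSeq index for transcript abundance and sleuth 0.29.0 to compare the lines. The submitters' notes name hg19. In the deposited table the estimated counts of a library are multiplied by a common factor (between 0.935 and 1.16), which was undone before rounding and summing over the transcripts of a gene. The deposited TPM values, a signal that the authors scaled per library in the same export, were used as they stand for levels. A further deposited table holds the authors' own comparison of the lines, from which only transcript symbols were taken. Of 31077 transcripts, 3925 without a symbol were named through a RefSeq annotation of GRCh38.p14, and 103, with 0.0466% of the counts, stayed unnamed.

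A gene needed 5 or more counts in 2 or more libraries. Testing was done in edgeR 4.0.16 (R 4.3.3) with TMM factors and the quasi-likelihood test, and all 9 genes passed this filter. The threshold was a Benjamini-Hochberg adjusted p of 0.05 over all genes tested, and SE is the fold change divided by the root of the F statistic. The smallest p that an exact permutation test allows for 2 against 2 libraries is 0.333. Alternatives used DESeq2 1.42.0, limma 3.58.1, other filters, pseudocounts and size factors, a replicate block and each library left out. The 9 genes and the lists were chosen with earlier results of these data known. All 9 were described, of each list the called genes with the largest changes (up to 4 in each direction, with a mean of at least 100 normalized counts), and SQLE, SREBF2, INSIG1 and LBR whatever their values. Results for some genes of the lists are not reported here, and the counts leave them out. Neighbours within 10 kb, EBPL, IDI2, FAXDC2, CYP27A1 and CYB5R3 were added after their values were seen.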

Additional observations from a re-analysis of the deposited data

How the results depend on the processing

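All 9 genes stayed lower in PZT-2 under each of the 13 alternatives run, and 112 of the 117 values passed the threshold. The 5 that did not were TM7SF2 and HSD17B7 without PZT-2 replicate 1 or 2 and SC5D with the most abundant transcript alone, so the count called lower was 8 there and 7 to 9 with each library left out. The upstream list, at 10 genes called lower, stayed at 9 or 10 with each library left out and at 9 with the most abundant transcript alone. The pathway genes called lower, 24, ran from 17 to 24. The 5 called higher became 3 with DESeq2, 2 with the most abundant transcript alone, 3 with the replicate block, and 1 to 5 with each library left out. Among the 17 transcripts, the 1 called by edgeR became 11 with DESeq2, 6 with at least 10 counts in all 4 libraries, 5 with limma-trend on log2(TPM + 1), 0 with the replicate block and 0 with each library left out. Over all genes, the 4292 calls became 2124 with the most abundant transcript alone and 1867 to 4664 with each library left out. The 2 lowest, 1867 and 2313, came from leaving out replicates 2 and 1 of PZT-2. Where a line was left with 1 library, that library was assumed to vary like the other line. The ratio of highest to lowest TPM in PANC-1, 15.9, was 13.8 and 18.6 with 1 PANC-1 library left out and also 15.9 with TPM recomputed from the recovered counts, an alternative chosen after seeing the data. Replicates with the same number did not deviate together (correlation of deviations -0.0204), so the numbers are not taken as pairs, and the replicate block left all 9 genes called lower. The causes of these changes were not tested.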
